A study of Mus musculus with 8 samples.

Results

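The genes of the cytosolic ribosomal proteins were examined in RNA of mouse sensory neurons, together with the limits that near-identical gene copies set on counting them. Members were all rows of the count tables whose symbol was Rpl or Rps with a number, with an a, x, y or l and a further digit where present, and the rows Rplp0, Rplp1, Rplp2 and Rpsa, without the S6 kinase genes. This gave 84 of 22609 rows, of which 51 belong to the large and 33 to the small subunit. The RNA came from neurons of the dorsal root ganglia (DRG) of adult, untreated C57BL/6J mice, 4 female libraries with the females in estrous and 4 male libraries. WGA-488, a fluorescent plant lectin, had been injected into hindpaw and thigh of all mice. The cells that had carried it back to ganglia of lumbar levels were sorted and pooled within a sample, so each library mixes neurons of skin and muscle. Libraries were made by SMART-seq2, which primes cDNA with oligo-dT and amplifies it by PCR.

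A ribosome holds about equal numbers of each of its proteins, which join ribosomal RNA in the nucleolus to form a small subunit that reads the mRNA and a large subunit that links amino acids. Neurons make these proteins in large amounts in the cell body, and their mRNAs also reach the axon. Mammalian genomes carry many processed pseudogenes of these genes, intron-free copies of the spliced mRNA that were inserted elsewhere, so a short read of such an mRNA can align to several places.

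Libraries held 4800071 to 7329597 reads assigned to genes. Levels are given as CPM, the reads of a gene per 1000000 reads assigned to genes, and 3 reads, taken as the floor, corresponded to 0.409 to 0.625 CPM. PCR copies cannot be told from separate molecules, so floors and Wilson intervals cover counting error only. The summed level of 15 neuron markers was 26573 to 37054 CPM over all libraries. The summed level of 15 markers of satellite glia and Schwann cells was 12110.2 to 15337 CPM in females and 5827 to 11634 CPM in males. For 10 fibroblast markers it was 101 to 154 CPM in females and 45.6 to 86.3 CPM in males, and for 10 macrophage markers 14.02 to 36.2 CPM and 4.50 to 10.6 CPM. Female replicate 4 stood apart by gene length: 5917 genes with a coding transcript of 3000 bases or more had a median deviation of -0.46 (log2) from their median library there, against 0.29 for 717 genes under 1000 bases. Several results below are given with and without it.

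Reads were 50 bases long and single, and reads with several reported alignments were not assigned to any gene. Each stretch of 50 bases (window) of an annotated transcript was therefore looked up in both strands of the mouse genome (NCBIM37, the assembly also called mm9). The 3 windows printed first are shown because they come from members with few or no reads, and each spans a junction of neighbouring exons, the part of the later exon in capitals. In the gene itself such a window is interrupted by an intron, and each was found without interruption elsewhere in the genome. The window printed last comes from an abundant member and was found at its gene alone.
Rps27: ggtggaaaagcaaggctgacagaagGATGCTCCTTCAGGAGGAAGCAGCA
Rps12: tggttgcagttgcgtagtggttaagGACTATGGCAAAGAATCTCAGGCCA
Rpl26: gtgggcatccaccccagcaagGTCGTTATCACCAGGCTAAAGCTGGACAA
Rpl4: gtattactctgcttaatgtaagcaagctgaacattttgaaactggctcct

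The Rps27 window joined exons 3 and 4 (minus strand, chr3:90016856-90016880 and chr3:90016651-90016675) and occurred intact at 3 other places, among them chr15:99536994-99537043 within the span of Smarcd1. The Rps12 window joined exons 5 and 6 (minus strand, chr10:23505382-23505406 and chr10:23505055-23505079) and occurred intact at 17 other places, most of them annotated pseudogenes. The Rpl26 window joined exons 3 and 4 (plus strand, chr11:68716801-68716821 and chr11:68717867-68717895) and occurred intact at 4 places. The Rpl4 window lies in exon 7 (plus strand, chr9:64025128-64025177). All 4 windows lie in the coding part of the mRNA.

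Of the 84 members, 83 were matched by symbol to the GENCODE M1 annotation, and Rpl41 was not. Of these, 80 had at least 1 further place in the genome that shared a coding window exactly, 39 had 10 or more, and the median was 9. Rpl7a had 129 such places, Rpl29 had 90, Rpl21 had 86 and Rps2 had 78. Rpl3l and Rpl39l were among those with none. Over all members there were 1195 places, of which 44.7% overlapped an annotated pseudogene, 24.9% lay within the span of a protein-coding gene, introns included, and 29.1% lay outside annotated genes. The pseudogenes numbered 533, and 15 of these (2.81%) were rows of the count tables used here. Of those rows, 5 were at 0 in all libraries and 14 had under 100 reads over all 8. The remaining row, Gm15421 (chr5:22034139-22034537), shared 258 coding windows with Rpl22l1 and held 66 to 190 reads per library.

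Measured over coding windows alone, 25.4% of the members' 39733 windows were found once in the genome. For 28 of 83 members (33.7%) no coding window was found once, and for 58 (69.9%) at most 20% were. Among 20232 coding genes of the tables, 1.12% had no coding window found once, and the median gene had 98.5% of them found once, against a median of 9.68% for the members. Exon junctions showed the same contrast. Of the members' 17910 junction windows, 74.7% occurred uninterrupted somewhere in the genome, against 6.40% of those of all coding genes. Both shares include windows that reach only a few bases into the next exon. For 11 members every junction window did so, among them Rpl5, Rpl7a, Rps13 and Rps29. Among the low shares were 3.85% for Rpl3l, 4.68% for Rpl8, 5.10% for Rpl39l and 9.52% for Rps3.

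The share found once depended on which sequence was searched. In the longest annotated transcript of each member, 68.2% of windows were found once, with the lowest shares for Rps27 (0.338%), Rps12 (1.92%), Rpl36 (6.48%) and Rpl19 (6.98%), and high shares for Rpl24 (99.4%), Rpl39l (99.3%) and Rpl3l (98.7%). Longest transcripts often retained introns or long untranslated ends, and the Rpl24 gene of this annotation also held the transcript of a neighbouring gene. In the main coding transcript of Rpl24 the share was 14.8%, and in its coding part it was 0.

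Levels were higher in the groups with more coding windows found once, with named exceptions. The 28 members with no coding window found once had a median level of 0.988 CPM over the 8 libraries (range 0.325 to 38.0), and 15 of them lay below 1 CPM. The 30 members with up to 20% had a median of 13.1 CPM (0 to 39.4). The 8 members between 20% and 40% had a median of 48.2 CPM (3.82 to 133). The 17 members above 40% had a median of 77.4 CPM (0 to 300.0) and held 60.3% of all reads of the 84 members. Of the 15 members at 50 CPM or more, 4 belonged to the group between 20% and 40% and 11 to the group above 40%. Over the 83 members, Spearman's rho between the mean level and the coding share was 0.61, and it was 0.17 with the share in the longest transcript. All points share the same 8 libraries, and members are not independent of each other, so these are descriptions without a test.

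**Figure D1:**
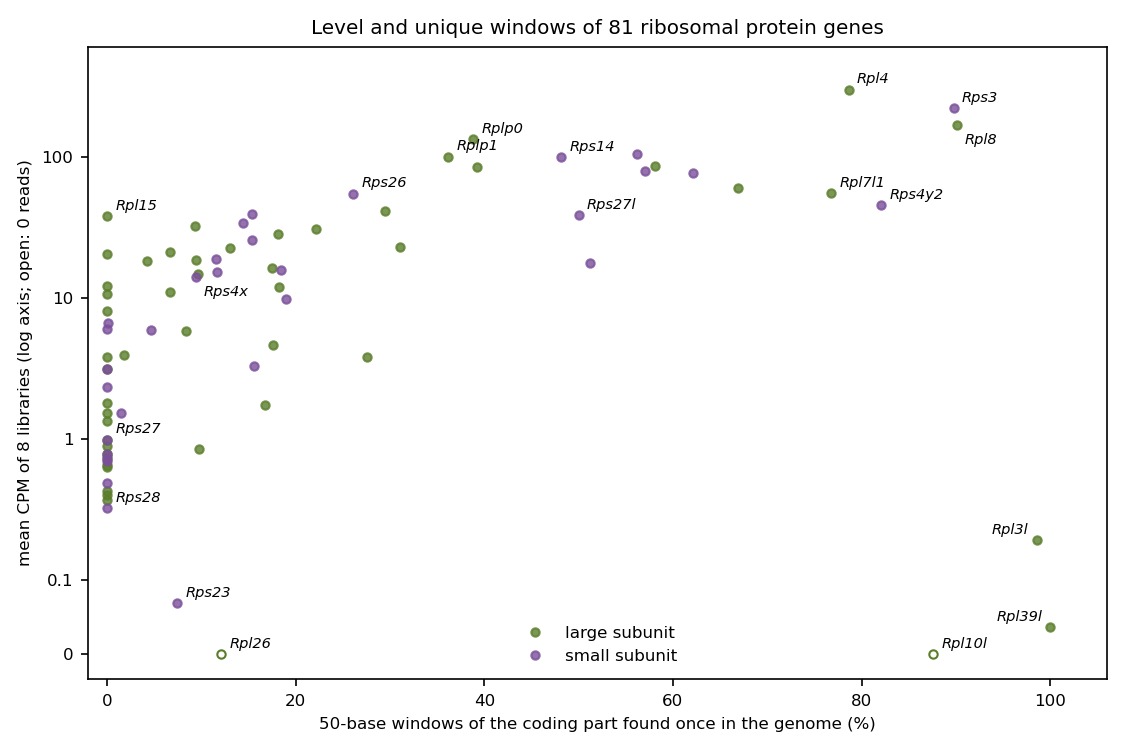
Mean level of 81 of 83 annotated ribosomal protein genes over 8 libraries (CPM, log axis, open points for 0 reads) against the share of 50-base windows of the coding part found once in the genome (percent). Points with no such window lie mostly low and points above 40% mostly high, while Rpl10l, Rpl39l and Rpl3l lie near 0 at the right.

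The exceptions ran both ways. Rpl15, a large-subunit protein, had no coding window found once, yet its level was 38.0 ± 4.45 CPM (SD, n = 8), and 1124 windows of its coding transcript that reach outside the coding part were found once. Its exons overlap the gene Nkiras1. Rpl5, which binds the small ribosomal RNA of the large subunit, had 12.1 ± 1.44 CPM (SD, n = 8) with 1024 such windows, and its exons overlap the gene Fam69a. In contrast, Rpl12 had 608 such windows and 0.660 ± 0.410 CPM (SD, n = 8), and Rpl21 had 1295 and 3.81 ± 1.05 CPM (SD, n = 8). The exons of Rpl12 overlap the genes Lrsam1 and Snora65. Whether reads reach the parts outside the coding sequence of a given member was not measured, because only counts per gene were used here.

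Among the abundant members, Rpl4, a large-subunit protein that lines the tunnel through which the new peptide leaves, took 11.6% of all member reads. It had 273, 290.0, 274 and 387 CPM in female replicates 1 to 4 and 310.2, 305, 269 and 290.3 CPM in male replicates 1 to 4. Rps3, a small-subunit protein at the entry of the mRNA, had 213, 216, 192 and 259 CPM in females and 243, 219.8, 213 and 215 CPM in males. In both genes female replicate 4 was the highest library, and the other female libraries overlapped the males.

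Rpl8, a large-subunit protein near the site where peptide bonds form, had 154 to 214 CPM in females and 149 to 180.0 CPM in males. The stalk of the large subunit, which recruits elongation factors, is built on Rplp0 and carries Rplp1 and Rplp2. Rplp0 had 133 ± 15.6 CPM, Rplp1 100.3 ± 13.0 CPM and Rplp2 22.9 ± 3.24 CPM (SD, n = 8 each). Their coding shares found once were 38.8%, 36.1% and 31.1%. The 10 most abundant members took 58.2% of member reads and the first 3 took 28.03%.

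At the low end, 21 members had a mean below 1 CPM. Rpl26, a large-subunit protein at the peptide exit, had 0 reads in each of the 8 libraries, which allows up to 0.409 to 0.625 CPM per library, although 85 of the 477 windows of its coding transcript were found once. Rps23, a protein of the decoding centre of the small subunit, had 0, 2, 1 and 0 reads in females and 0 reads in each male library. Rps12, of the small subunit, had 4, 4, 5 and 4 reads in females and 5, 5, 4 and 5 reads in males, with 9 of 468 windows of its coding transcript found once. For Rps27, also of the small subunit, 8, 8, 6 and 8 reads were counted in females and 3, 7, 5 and 4 reads in males, with 1 of 296 windows found once. Counts this small are imprecise. Of the 84 members, 23 did not pass the expression filter of the sex comparison.

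**Figure D2:**
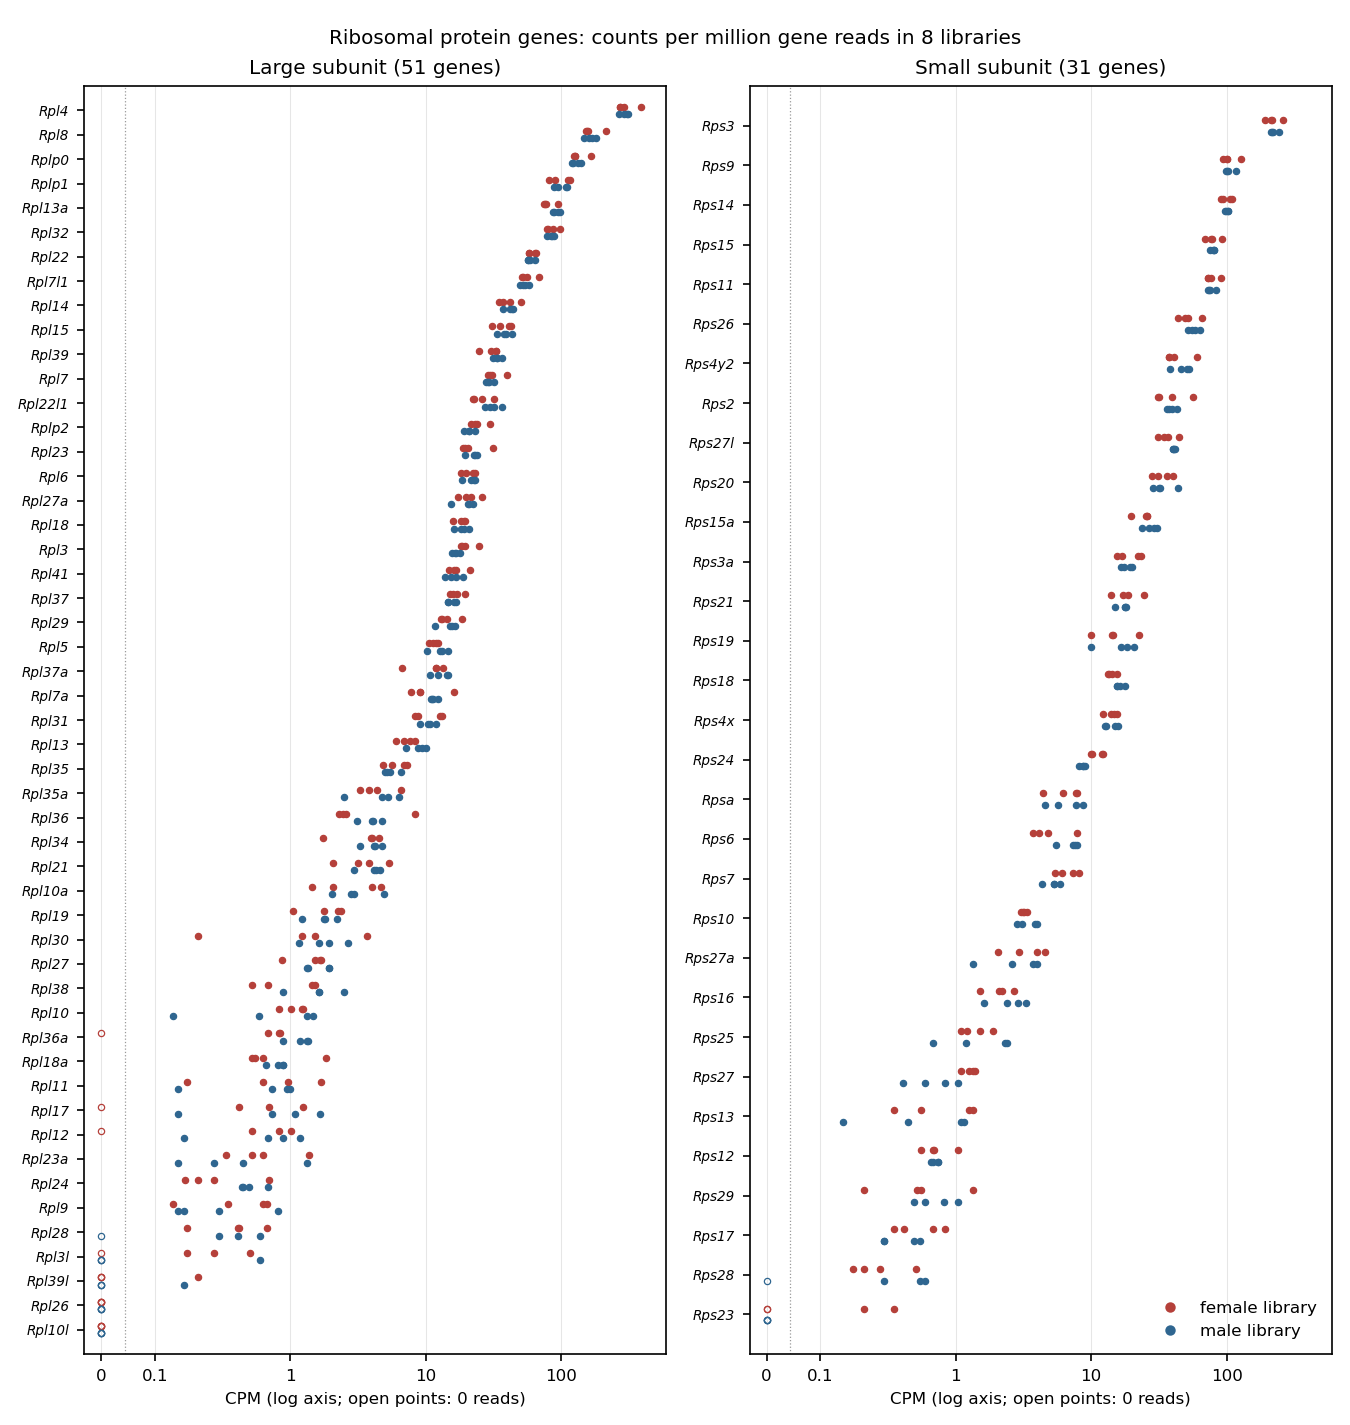
Level of each of 82 ribosomal protein genes in each library (CPM, log axis, open points at 0 for libraries without a read), with 51 large-subunit genes on the left and 31 of the 33 small-subunit genes on the right (the other 2 are not shown in the plots), red for female and blue for male libraries. Levels run from 0 for Rpl26 and Rpl10l to 387 CPM for Rpl4 in female replicate 4.

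Several members have a paralogue, a second gene whose protein can take the same place in the ribosome. The middle of the coding part is shown for 2 of these pairs, with the bases that differ in capitals, since the differing bases are what lets a read be assigned.
Rps27: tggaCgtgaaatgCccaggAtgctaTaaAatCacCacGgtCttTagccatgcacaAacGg
Rps27l: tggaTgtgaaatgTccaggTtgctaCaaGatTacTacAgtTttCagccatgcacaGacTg
Rps4x: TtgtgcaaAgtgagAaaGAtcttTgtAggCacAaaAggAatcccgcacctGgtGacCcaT
Rps4y2: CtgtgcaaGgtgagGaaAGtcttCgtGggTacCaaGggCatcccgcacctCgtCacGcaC

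Rps27 (chr3:90016593-90017573) and Rps27l (chr9:66793893-66797323) are shown from coding base 98 to 157, where 12 bases differ, and over the whole coding part they were identical at 76.1% of 255 bases with no identical run over 11 bases. The level of Rps27l was 38.6 ± 4.40 CPM and that of Rps27 0.994 ± 0.357 CPM (SD, n = 8 each). Per kilobase of coding transcript these were 77.4 and 2.88 CPM. In Rps27l 103 of 206 coding windows were found once and in Rps27 0 of 206, and Rps27 had 11 other places in the genome against 4.

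Rps4x is on the X chromosome (chrX:99380280-99384733), and Rps4y2 lies, despite its name, on an autosome without introns (chr6:148303178-148304120). They are shown from coding base 367 to 426, where 15 bases differ, and they were identical at 80.1% of 789 aligned bases with no identical run over 35. Rps4y2 had 48.4 CPM per kilobase of coding transcript and Rps4x 14.4, and 607 of 740 coding windows of Rps4y2 and 70 of 743 of Rps4x were found once. Reads of Rps4y2 numbered 196 to 389 per library and those of Rps4x 67 to 115, and the ranges did not overlap.

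Of the other pairs, Rpl22 and Rpl22l1 were identical at 70.2% of aligned coding bases and had 128 and 58.5 CPM per kilobase of coding transcript. Rpl7 and Rpl7l1 (59.9% identical) had 26.6 and 21.2 CPM per kilobase. Rpl3, whose paralogue Rpl3l is known from heart and skeletal muscle, had 13.5 CPM per kilobase and Rpl3l 0.141, although 98.6% of the coding windows of Rpl3l and 4.30% of those of Rpl3 were found once. Rpl39 had 52.5 CPM per kilobase, and Rpl39l, known from testis, had 2 reads in all. Rpl10, which completes the large subunit, had 1.23 CPM per kilobase, and Rpl10l, its intron-free copy known from testis, had 0 reads in every library with 87.6% of its coding windows found once. Rpl26l1 had no row among the genes used here.

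Levels per length spread widely within a set of proteins that the ribosome holds in about equal numbers. Over the 81 members with reads and an annotation, the standard deviation of log2 CPM per kilobase was 2.96 with the union of exons as length, 2.78 with the coding transcript and 2.59 with the windows of the coding transcript found once. Per kilobase of exon the highest were Rpl4 (211 CPM), Rplp1 (203), Rpl8 (195) and Rpl32 (165). The lowest were Rpl26 and Rpl10l at 0, Rpl39l (0.0562) and Rpl24 (0.0708), the last over exons that include the neighbouring gene. Of 76 mitochondrial ribosomal protein genes, which build the separate ribosome of mitochondria and whose median coding share found once was 98.2%, the median level was 33.9 CPM per kilobase of coding transcript, against 9.83 for the cytosolic members.

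By subunit, the median level was 10.7 CPM for the 51 large-subunit members and 14.1 CPM for the 33 small-subunit members, and per kilobase of coding transcript 9.64 and 10.2 CPM. Of 50 annotated large-subunit members, 19 had no coding window found once, and of 33 small-subunit members 9 had none.

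All members together took 0.240%, 0.251%, 0.231% and 0.312% of gene reads in female replicates 1 to 4 (Wilson 95% intervals 0.237 to 0.244, 0.246 to 0.255, 0.227 to 0.236 and 0.307 to 0.316). In male replicates 1 to 4 they took 0.271%, 0.259%, 0.247% and 0.256% (0.267 to 0.275, 0.255 to 0.262, 0.243 to 0.251 and 0.253 to 0.260). The mean was 0.258% ± 0.0364 in females and 0.258% ± 0.00990 in males (SD, n = 4 each). Without female replicate 4 the female mean was 0.241% ± 0.00962 (SD, n = 3), and the single libraries of the sexes still overlapped, since female replicate 2 lay above male replicate 3.

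The line of the count tables for alignments that were not unique held 8569168 to 13297230 entries per library. HTSeq-count adds 1 to it for each reported alignment, so it counts alignments and not reads, and it holds those of every repeated sequence. Set against gene reads and all summary lines, it made up 41.4%, 43.3%, 42.0% and 46.6% in female replicates 1 to 4 and 42.2%, 42.1%, 42.0% and 42.2% in male replicates 1 to 4. Females had 43.3% ± 2.30 and males 42.1% ± 0.0771 (SD, n = 4 each), a difference of 1.21 percentage points (two-sided exact permutation test, p = 0.429, smallest possible 0.0286). Without female replicate 4 the difference was 0.13 points (exact permutation p = 0.886), and without female replicate 1 it was 1.85 points (exact permutation p = 0.143). As a percent of gene reads alone the difference was 10.5 points (exact permutation p = 0.229). Female replicate 4 was thus the highest library both in this share and in the share of the ribosomal protein genes.

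**Figure D3:**
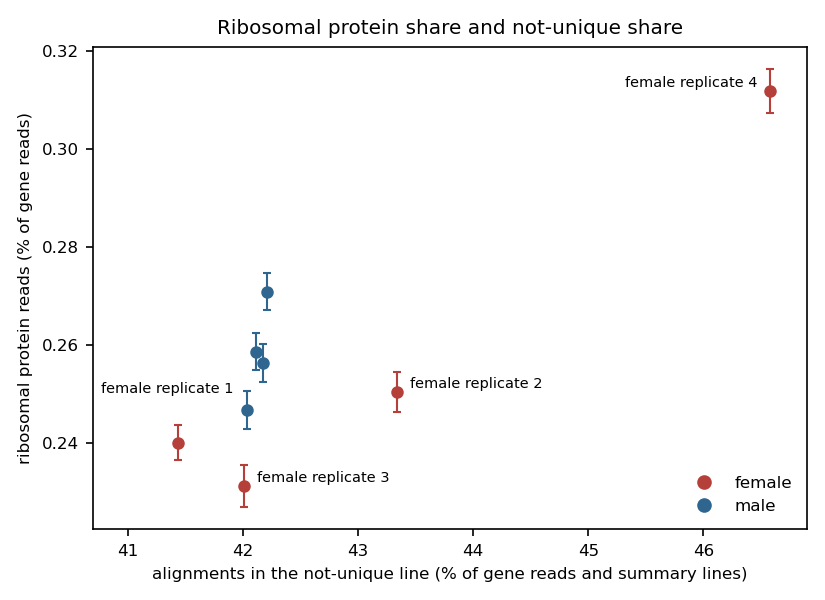
Reads of the 84 ribosomal protein genes (percent of gene reads, with Wilson 95% intervals) against alignments in the not-unique line (percent of gene reads and summary lines) in the 8 libraries, red for female and blue for male. Female replicate 4 lies apart at 46.6% and 0.312%, and the other 7 libraries lie between 41.4% and 43.3% and between 0.231% and 0.271%.

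Female replicate 4 was the highest of the 8 libraries for 40 of the 61 tested members (65.6%) and for 31.4% of the 12518 genes tested. Among the female libraries alone it was the highest for 51 members (83.6%) and for 38.1% of genes. The members' median deviation from their median library was 0.29 there (log2 of CPM with 0.5 added) and -0.13 to 0.07 in the other 7 libraries. Most members are short: the coding transcript was under 1000 bases for 60 of 83. Among all tested genes of that length the corresponding values in female replicate 4 were 0.29 and 64.2%. For 74 tested mitochondrial ribosomal protein genes they were 0.37 and 86.5%, for 83 genes of ribosome assembly 0.17 and 48.2%, and for 22 other mRNAs of the TOP class, which share with the members a start of pyrimidine bases read by the growth pathway of mTOR, 0.26 and 54.5%.

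**Figure D4:**
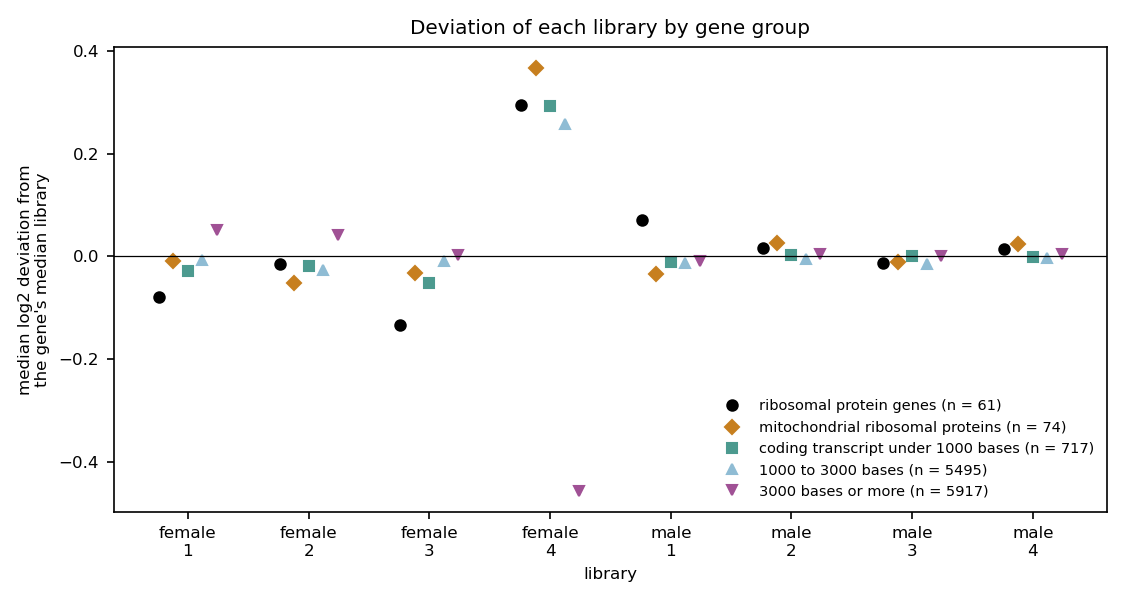
Median log2 deviation of each library from each gene's median library, for 61 ribosomal protein genes, 74 mitochondrial ribosomal protein genes and all tested genes in 3 classes of coding transcript length. In female replicate 4 the ribosomal protein genes and other short genes lie at 0.29 and genes of 3000 bases or more at -0.46, and in the other libraries every class lies between -0.13 and 0.07.

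The sexes were then compared, the question for which the libraries were made. Counts were fitted with the quasi-likelihood test of edgeR over 12518 genes, and fold changes are female over male. None of the 61 members tested reached an adjusted p under 0.05 (0.0879% of all genes did) and none an unadjusted p under 0.05 (7.1% of all genes did). DESeq2 tested 82 members and limma-voom 61, and each again had 0 by either measure. Of all 17247 genes in DESeq2, 44 had an adjusted and 1014 an unadjusted p under 0.05. Of all 12518 genes in limma-voom these were 10 and 891. With library sizes in place of scaling factors 1 member had an unadjusted p under 0.05, Rps24 (7.33% of all genes), with exon lengths as offsets 1, Rpl22l1 (9.41%), and without female replicate 2 there were 2, Rps24 and Rps6 (7.23%). The median log2 fold change of the members was -0.03, against 0.01 over all genes, with 24 members above 0 and 37 below. This balance depended on the libraries used: without female replicate 3 it was 35 above and 28 below (median 0.02), without female replicate 1 it was 32 and 30, and without male replicate 1 it was 31 and 31. With exon lengths as offsets it was 16 above and 45 below (median -0.06). The 95% interval held 0 for every one of the 61, lay within a 2-fold change either way for 58 and within a 1.5-fold change for 38. In these pooled cells, fewer cells of a type and less RNA per cell cannot be told apart.

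**Figure D5:**
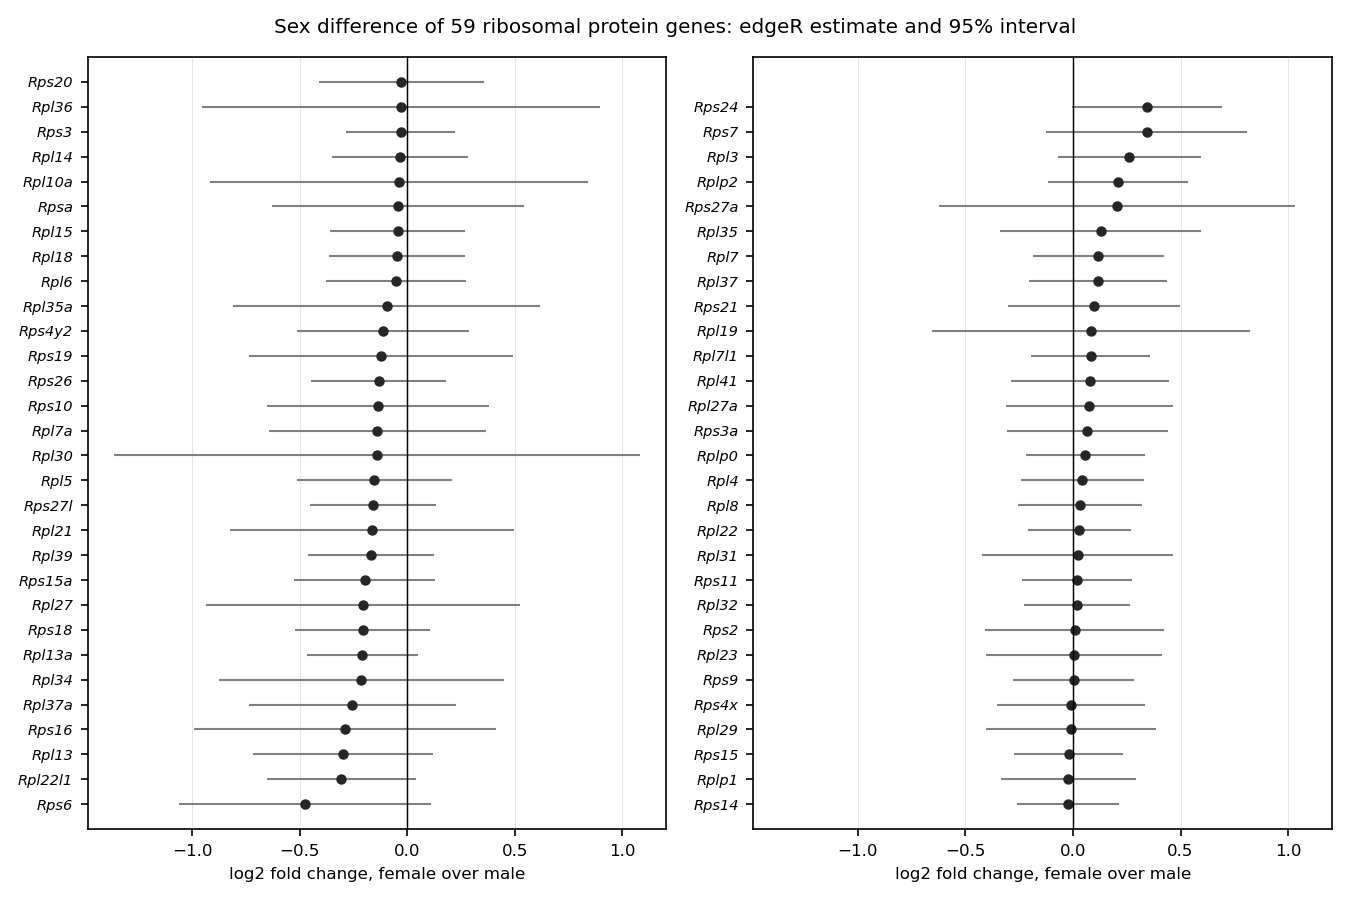
Log2 fold change, female over male, of 59 of the 61 ribosomal protein genes tested, with 95% intervals of the edgeR fit over 8 libraries. All 59 intervals cross 0, and the estimates run from -0.48 for Rps6 to 0.34 for Rps24.

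The members with the smallest p-values had estimates in both directions. Rps24, a small-subunit protein mutated in Diamond-Blackfan anaemia, had 11.96, 9.89, 10.2 and 12.3 CPM in females and 8.73, 9.06, 8.09 and 8.73 CPM in males. Every female library was above every male library, and the log2 fold change was 0.34 ± 0.16 (SE, edgeR adjusted p = 0.690). Rpl3, which lies at the centre of the large subunit, also had all female libraries (18.1 to 24.8 CPM) above all male libraries (15.6 to 17.8 CPM), with 0.26 ± 0.15 (SE, edgeR adjusted p = 0.743). Female replicate 4 was the highest of these libraries, and without it the estimate for Rpl3 was 0.15 ± 0.12 (SE). These were 2 of 61 members whose sexes did not overlap with females higher (3.0% of all genes), and 0 members did so with males higher (2.52% of all genes). Of the 23 members that were not tested, Rps27 did not overlap with females higher and Rpl36a with males higher, both at 10 reads or fewer per library. The share of such genes among all untested genes was not counted, so these 2 have no comparison.

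Rps7 had 5.36 to 8.09 CPM in females and 4.31 to 5.92 CPM in males, with a log2 fold change of 0.34 ± 0.21 (SE, edgeR adjusted p = 0.768). On the male side, Rpl22l1 had 26.0, 22.4, 22.7 and 31.8 CPM in females and 36.6, 32.1, 27.6 and 29.9 CPM in males, with -0.31 ± 0.16 (SE, edgeR adjusted p = 0.718). Rps6, the small-subunit protein that S6 kinases phosphorylate, had 4.12, 7.81, 4.79 and 3.71 CPM in females and 5.46, 7.28, 7.60 and 7.84 CPM in males, with -0.48 ± 0.27 (SE, edgeR adjusted p = 0.735). Without female replicate 2, the highest female library, the Rps6 estimate was -0.77 ± 0.24 (SE). For Rpl13a the estimate was -0.21 ± 0.12, for Rpl13 -0.30 ± 0.19 and for Rps18 -0.21 ± 0.14 (SE, edgeR adjusted p = 0.735, 0.771 and 0.780). In each of these 6 genes the sexes overlapped. The exons of Rpl13a overlap Flt3l and those of Rps18 overlap Vps52.

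Leaving out female replicate 4 lowered the members' median to -0.12 with 55 of 63 tested members below 0, while the median over all genes stayed at 0.01. In that fit 7 members had an unadjusted p under 0.05, all lower in females (11.1% of members, while 11.4% of all genes passed and 5.72% did so lower in females). They were Rpl13a (-0.30 ± 0.08), Rpl22l1 (-0.43 ± 0.13), Rps27l (-0.27 ± 0.09), Rpl7a (-0.43 ± 0.16), Rpl36 (-0.71 ± 0.27), Rps26 (-0.26 ± 0.10) and Rps4y2 (-0.31 ± 0.13, SE), and none had an adjusted p under 0.05 (smallest 0.285 in edgeR, with 0.102% of all genes passing). For Rpl36 the estimate with all libraries was -0.03 ± 0.42 (SE), since female replicate 4 had 8.42 CPM and the other female libraries 2.29 to 2.60 CPM, against 3.12 to 4.79 CPM in males. The summed markers of satellite glia and Schwann cells, fibroblasts and macrophages were higher in every female than in every male library. The largest part of the first sum was Apoe, with a mean of 8940 CPM in females and 5818 CPM in males. Pmp22 of the same list was lower in females, at 1100 CPM against 1165 CPM. The 8 markers of endothelium and mural cells overlapped, at 53.4 to 88.7 CPM in females, lowest in female replicate 4, and 73.8 to 99.5 CPM in males. In the edgeR fit with all 8 libraries, 4 of 6 markers of peptidergic neurons had an unadjusted p under 0.05 with males higher. Females were higher at this p for 2 of 7 markers of myelinated neurons and 5 of 15 of satellite glia and Schwann cells. The same held for 1 of 15 neuron markers, 4 of 5 tested fibroblast markers and 3 of 3 tested macrophage markers. Of 6 markers of non-peptidergic neurons 0 passed, and of 3 tested markers of endothelium and mural cells 1 with males higher. Of all genes 7.1% passed in either direction. None of these markers had an adjusted p under 0.05. The part of these cell types in the values was not tested.

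Of the 4 members on the X chromosome, Rpl39 had a log2 fold change of -0.17 ± 0.13 and Rps4x -0.01 ± 0.16 (SE, edgeR adjusted p = 0.804 and 0.991). Rpl10 had 6, 7, 6 and 6 reads in females and 1, 9, 9 and 4 in males, and Rpl36a (chrX:131120193-131122601) 5, 0, 4 and 5 reads in females and 10, 6, 8 and 8 in males. Both were under the filter and were not tested. No coding window of either was found once in the genome.

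Genes that work with the members were looked at in the same fit. Of 83 tested genes of ribosome assembly, 0 had an adjusted p under 0.05 and 1 an unadjusted p under 0.05, with a median log2 fold change of 0.01. This was Gar1, a protein of the particles that modify ribosomal RNA (0.80 ± 0.27, SE, edgeR adjusted p = 0.630). Rrn3, an initiation factor of RNA polymerase I, had -0.34 ± 0.16 and Npm1, a nucleolar chaperone, -0.28 ± 0.13 (SE, edgeR adjusted p = 0.690 each). Among 22 other TOP mRNAs 0 had an unadjusted p under 0.05. Among 22 genes that control TOP mRNAs 1 did, Rheb, the activator of mTOR (-0.26 ± 0.12, SE, edgeR adjusted p = 0.690). Among 74 tested mitochondrial ribosomal protein genes 1 did, Mrpl1 (-0.34 ± 0.15, SE, edgeR adjusted p = 0.690), and their median was 0.05.

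Relatives of the members outside the naming rule were looked at as well. Fau, which encodes a ubiquitin-like protein joined to a small-subunit protein, had 2.85 ± 0.587 CPM (SD, n = 8), with no coding window found once. Gnb2l1, the scaffold protein Rack1 on the small subunit, had 107 ± 10.9 CPM (SD, n = 8) with 96.6% of coding windows found once. Rpl36al, an intron-free relative of Rpl36a, had 19.1 ± 2.09 CPM (SD, n = 8) with 18.4%. None of these 3 genes had an unadjusted p under 0.05 between the sexes. The 3 pseudogene rows named after members had few reads: Rplp2-ps1 had 0 in all libraries, Rpl34-ps1 0 to 2 and Rps19-ps3 0 to 7.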

How the data were processed

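The authors demultiplexed single 50-base reads, aligned them to mm9 with TopHat2 at default settings and used HTSeq-count to obtain a number for each gene. What the authors deposited is thus a raw count per gene and library, not normalized, with 5 summary lines. Versions, annotation and strand option are not given in the sources used here, and the labels give no batch. The tracer was injected in 4 females and 4 males, and each of the 8 samples held ganglia of both sides. The p-values measure the spread between these libraries.

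CPM were counts per 1000000 reads assigned to genes, with the summary lines left out. Sexes were compared with edgeR 4.0.16 (R 4.3.3; quasi-likelihood test, TMM factors, filterByExpr, Benjamini-Hochberg over 12518 genes) on sex alone, and tested on simulated data first. Of 200 genes given a 2-fold change there, 57.5% were recovered, with 0 false calls. With a 4-fold change 94.5% were recovered, with 16 false calls. Limma-voom and DESeq2 were alternatives. The share of not-unique alignments was compared by an exact permutation test over 70 labelings.

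Windows of 50 bases were matched exactly on both strands of NCBIM37 with GENCODE M1 models. The coding transcript was transcript 001 where coding, otherwise the one with the longest coding sequence. Places that differ by even 1 base were not counted as matches. Coding windows, coding transcript lengths and the class edges of 20% and 40% were chosen after seeing the data. Places within 2000 bases were joined. Coding parts of paralogues were aligned globally.

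Members and gene lists were chosen with earlier results of these data known. Members were named where they had an adjusted p under 0.05, the 8 smallest p-values, the 4 highest or lowest levels per kilobase of exon, under 4 reads in every library, an X-linked gene, a listed paralogue, or the 4 lowest or highest shares of windows found once; of other lists, genes with an adjusted p under 0.05 and the 3 smallest p-values. Members outside this rule that are named were chosen after their values were seen. Some items are not reported here.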

Additional observations from a re-analysis of the deposited data

Results flagged for a closer look

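The 61 tested members, Rpl36a and the library shares of the members and of not-unique alignments gave 128 groups of 4 libraries. In 12 of these the gap of the highest or lowest library to its nearest, as a share of the whole range, passed the 95% critical value of Dixon's test for 4 samples, which chance passes in about 1 of 20 groups. The groups come from the same libraries and are not independent. The share that passes over all genes was not counted, so the 12 cannot be read as particular to the members. Female replicate 4 was the highest female library in 9 of the 12. Rpl36 had 8.42 CPM there and 2.29 to 2.60 CPM in the other females, and Rpl7a 16.2 CPM against 7.84 to 9.17 CPM. Rplp0 had 168 CPM against 125 to 127 CPM, Rpl8 214 CPM against 154 to 159 CPM and Rpl4 387 CPM against 273 to 290.0 CPM. Rps4y2 had 60.6 CPM against 37.3 to 40.8 CPM, Rpl23 31.7 CPM against 18.9 to 20.6 CPM, Rpl13a 94.7 CPM against 74.4 to 77.5 CPM and Rpl7 39.8 CPM against 29.0 to 30.7 CPM. In contrast, Rps15a was lowest in female replicate 4, with 19.7 CPM against 25.6 to 25.9 CPM. Among male libraries, Rps21 was lowest in replicate 3, with 14.9 CPM against 17.7 to 18.1 CPM, and Rps9 highest in replicate 1, with 118 CPM against 98.5 to 101.7 CPM. Neither library share passed.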

How the results depend on the processing

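No alternative gave a ribosomal protein gene an adjusted p under 0.05. Members with an unadjusted p under 0.05 numbered 0, with 1 under library size alone (Rps24), 1 with exon length offsets (Rpl22l1), and 0 to 7 when a library was left out (7 without female replicate 4 and 2, Rps24 and Rps6, without female replicate 2). Over all genes, 11 had an adjusted p under 0.05, with 44 by DESeq2 and 7 to 84 when a library was left out (84 without female replicate 1, 7 without male replicate 4). With the replicate block there were 6, with 0 members. The labels give same-numbered libraries only a number in common, and whether they were handled together is not given. Their deviations correlated at 0.0939, -0.109, 0.144 and 0.00465, and 3 of 8 libraries correlated best with their own number. These values cannot settle whether the libraries were paired. The causes were not tested. The members' share of gene reads was 0.185% in females and 0.186% in males without the 3 members with the most reads, and 0.156% and 0.155% over members above 40% of coding windows found once. Windows found once were 81.6% of those in the union of exons, 52.1% in the coding transcript and 25.4% in the coding part, in place of 68.2%. The members' median level was 5.07 CPM per kilobase of exon, 6.20 with the longest transcript, 9.83 with the coding transcript and 33.8 with windows found once. The 8 members of smallest p kept the sign of their fold change under every alternative. They were chosen by p in these same libraries, so the kept sign is not independent support for a difference. Members below 1 CPM rest on few reads, and 15 of these 21 had no coding window found once. DESeq2 and the fit without a filter each tested 82 members and called 0, while they called 44 of 17247 and 13 of 17254 genes.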
